A study of Homo sapiens with 20 samples.

Results

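The genes described here are 41 genes of DNA replication and of entry into S phase, chosen by name from 36349 gene names in the data. They comprise 6 subunits of the MCM2-7 helicase, 5 genes of origin recognition and licensing, 5 of CDC45 and the GINS complex, 5 of the sliding clamp and its loader and 7 of the DNA polymerases and primase. The others are 2 genes of Okazaki fragment maturation, 4 of deoxynucleotide synthesis, 4 of cyclin E and E2F, and 3 of chromatin assembly and maintenance at the fork. All 41 were found in every library, and all 41 had a value of at least 10 in enough libraries to be tested in both cell lines.

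RNA was sequenced from 2 human colorectal cancer cell lines, HT29 and SW480, after silencing of POLR1D, which encodes a subunit shared by RNA polymerases I and III. The question was which transcripts differ when POLR1D is reduced. In HT29 there were 4 libraries with a scrambled siRNA (SCR), 2 with siPOLR1D2 and 2 with siPOLR1D3, and in SW480 there were 6, 3 and 3. All groups were transfected with an siRNA and harvested at 72 h, so no untransfected cells and no other time are included. Both are established cell lines, nothing states that the replicates came from separate cultures, and p values therefore measure the spread between these libraries only. The values are read counts normalized with DESeq2 by the authors within each line, so levels were not compared between lines.

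Depth was estimated from the commonest low value in a library, taken as 1 read. It was 14200000, 16100000, 21000000 and 20400000 reads in SCR replicates 1 to 4 of HT29, 22800000 and 22800000 with siPOLR1D2 and 20400000 and 13500000 with siPOLR1D3. In SW480 it was 18700000, 20500000, 19200000, 20200000, 25700000 and 27500000 in SCR replicates 1 to 6, 19100000, 19700000 and 21500000 with siPOLR1D2 and 18700000, 19900000 and 26300000 with siPOLR1D3. EPCAM, an epithelial adhesion protein, lay between 22402 and 28729.8 in HT29 and between 17162 and 35833 in SW480. KRT20, a marker of differentiated intestinal epithelium, was at most 11.2 in the SCR libraries of SW480.

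Replication is prepared in G1, when the origin recognition complex, CDC6 and CDT1 load the MCM2-7 helicase onto DNA. At the start of S phase cyclin E with its kinase relieves the block on E2F, whose targets include most of the genes described here, and CDC45 and GINS join the helicase to make it active.

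Several SCR libraries stood apart. On the first principal component of all tested genes in HT29, which held 43.3% of the variance, SCR replicate 1 lay at -88.3 and SCR replicate 2 at -18.7, while the other 6 libraries lay between 15.1 and 21.1. The same component in SW480, with 42.0% of the variance, put SCR replicates 1 to 3 and siPOLR1D2 replicates 1 and 2 below 0, and SCR replicates 4 to 6, siPOLR1D2 replicate 3 and the 3 siPOLR1D3 libraries above 0. The 3 siPOLR1D3 libraries of SW480 are thus on the same side, with 1 of the 3 siPOLR1D2 libraries.

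POLR1D itself was lower in every silenced library. Its normalized value was 6036, 4711, 4433 and 5009.6 in SCR replicates 1 to 4 of HT29, 3414 and 3492 with siPOLR1D2 and 2858 and 2549.6 with siPOLR1D3. In SW480 it ranged from 1829 to 2599 in the SCR libraries (median 2030.3) and from 843 to 1336 in the silenced ones (median 976). The groups did not overlap in either line, with an exact 2-sided permutation p of 0.0286 in HT29 and 0.00216 in SW480, the smallest that 4 libraries against 4 and 6 against 6 allow. On log2(value + 1), a scale that understates the change of low genes, the fold change, silenced minus SCR, was -0.72 (SE 0.14, limma, adjusted p = 0.355) in HT29 and -1.04 (SE 0.13, limma, adjusted p = 0.000992) in SW480, so that it passed the threshold of an adjusted p under 0.05 in SW480 only.

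In HT29, none of the 41 genes passed that threshold in limma, and neither did any of the 13275 genes tested (0%). At an unadjusted p under 0.05, 0 of the 41 were higher, against 4.66% of all genes, and 1, CDC6, was lower, against 6.05%. Its log2 fold change was above 0 for 38 of 41 genes, with a median of 0.50 beside 0.00017 over all genes tested. Without SCR replicate 1 the median was 0.02, and without SCR replicates 1 and 2 it was -0.25. In these bulk samples, a different share of cells in S phase and a different amount of RNA per cell cannot be told apart. No member had all silenced libraries above all SCR libraries, against 2.72% of genes tested, and none had them all below, against 4.17%.

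In SW480, 3 of the 41 genes rose, namely MCM5, GINS2 and POLD3, against 2.44% of the 15021 genes tested that were called higher. None fell in limma, against 4.29% called lower, and 0 were lower at an unadjusted p under 0.05, against 12.8% of all genes. At that unadjusted p 12 of the 41 were higher, against 10.4% of all genes. Silenced minus SCR, the log2 fold change was above 0 for 35 of 41, with a median of 0.30 beside 0.01 over all genes. No member separated the groups completely in either direction, against 1.68% of genes above and 2.88% below. The number that rose was 6 without SCR replicate 1, 6 without SCR replicate 2, 2 without SCR replicate 5 and 1 without each of the other 9 libraries. Over all genes 1284, 855 and 751 were called in either direction in the first 3 of these cases and between 534 and 978 in the rest, beside 1010 with every library. Without the filter on low values POLD3 alone passed, and in a single fit of both lines none of the 3 did. Other settings raised the number, to 4 with upper quartile scaling, 5 after quantile normalization and 9 with the side of the first component as a covariate. Over all genes 958, 1109 and 1993 were called with these settings. With siPOLR1D2 alone none of the 3 passed, and with siPOLR1D3 alone POLD3 did.

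**Figure D1:**
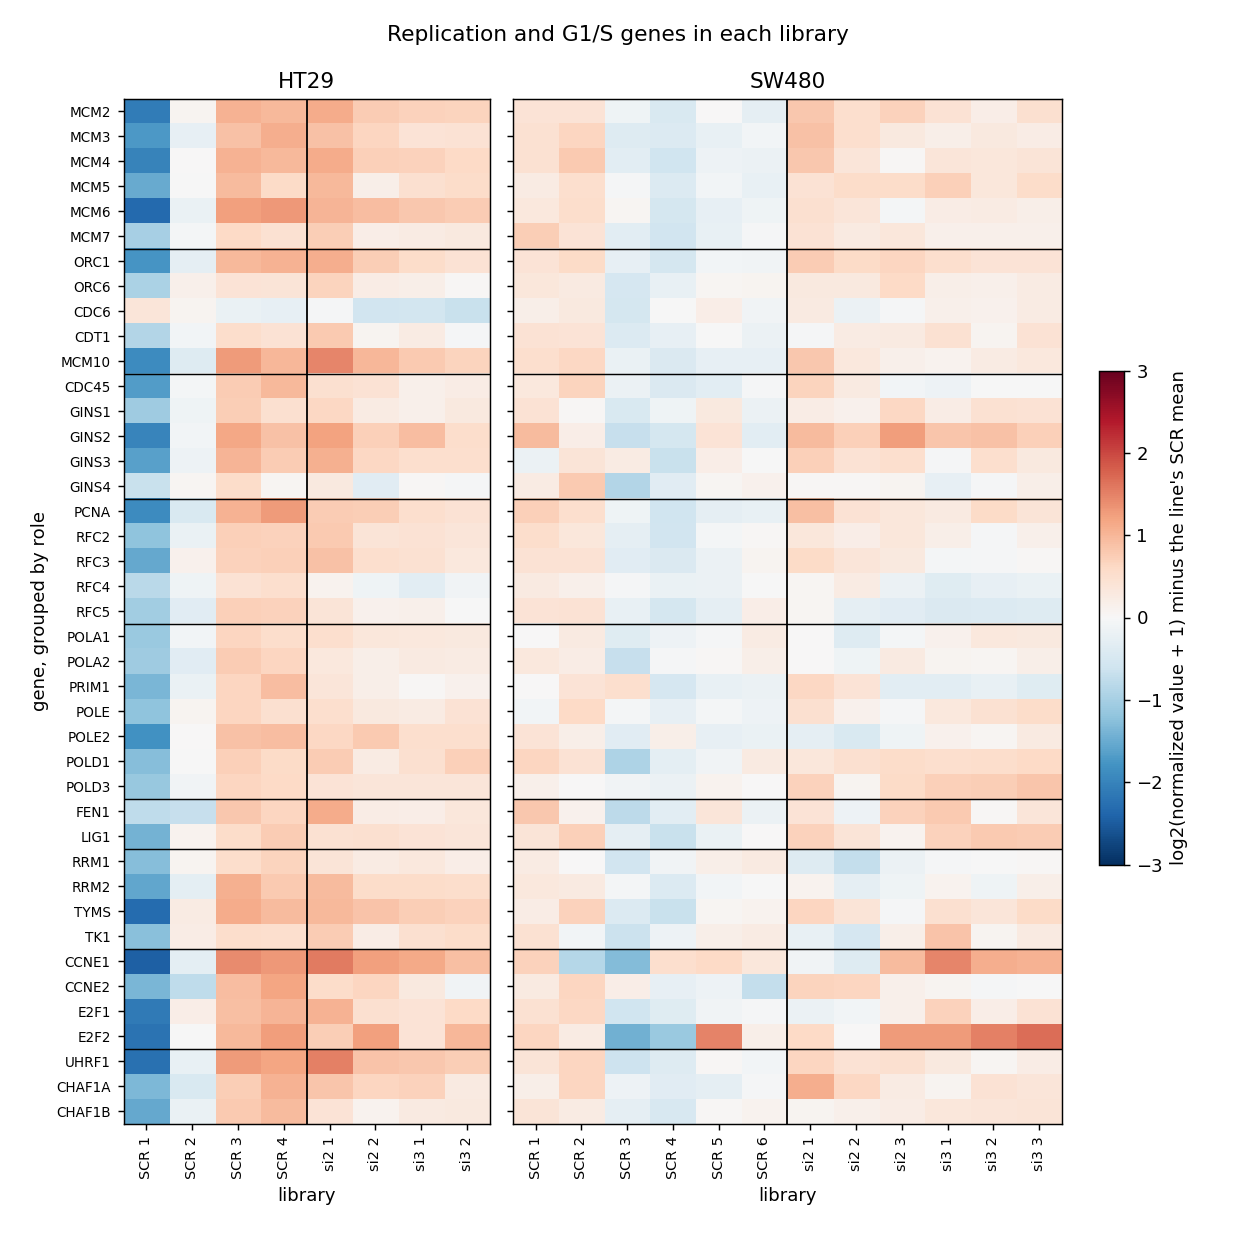
Each row is 1 of the 41 genes, grouped by role, and each column is 1 library, with si2 and si3 standing for siPOLR1D2 and siPOLR1D3. Colour is log2(normalized value + 1) minus the mean of the SCR libraries of that line, and in HT29 SCR replicate 1 holds the lowest value of 40 of the 41 genes.

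The MCM2-7 complex is the ring helicase that unwinds DNA at the fork. For MCM2 the normalized value was 358, 1635, 3189.6 and 3000.2 in SCR replicates 1 to 4 of HT29, 3319 and 2607 with siPOLR1D2 and 2476 and 2437 with siPOLR1D3. SCR replicate 1 was the lowest, SCR replicate 2 the next, and SCR replicates 3 and 4 lay among the silenced libraries. The difference on the log2 scale was 0.80 (SE 0.59, limma, adjusted p = 0.606), or 0.10 without SCR replicate 1. In SW480 MCM2 ranged from 1298 to 2383 in the SCR libraries (median 1719) and from 2048 to 3098 in the silenced ones (median 2510.0). In 5 of 6 silenced libraries it was above every SCR library, with a log2 fold change of 0.52 (SE 0.16, limma, adjusted p = 0.0623), which missed the threshold, with a 95% interval from 0.18 to 0.86. It passed without SCR replicate 1, at 0.61, or SCR replicate 2, at 0.60.

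MCM5 was described because it passed the test, and so was chosen after its values were seen. In HT29 its values were 195, 559, 1089.5 and 833 in SCR replicates 1 to 4, 1101 and 636 with siPOLR1D2 and 788 and 829 with siPOLR1D3, and its log2 fold change was 0.55, with a 95% interval from -0.47 to 1.57, or 0.044 without SCR replicate 1. In SW480 they ranged from 549 to 1041 in the SCR libraries (median 700.0) and from 922 to 1188 in the silenced ones (median 1063). The silenced libraries were above all SCR libraries in 4 of 6 cases, and SCR replicate 2 lay among them. MCM5 rose with a log2 fold change of 0.52 (SE 0.14, limma, adjusted p = 0.0436), and an exact permutation test gave p = 0.00649. When 1 library was left out it passed only without SCR replicate 1, at 0.57, or SCR replicate 2, at 0.62.

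MCM6, another subunit of the ring, had values of 227, 995, 2695 and 2823 in SCR replicates 1 to 4 of HT29, 2342 and 2176 with siPOLR1D2 and 1994 and 1958 with siPOLR1D3. The SCR libraries of HT29 thus spanned both extremes, and its log2 fold change was 0.88, with a 95% interval from -0.63 to 2.39, or 0.11 without SCR replicate 1. In SW480 it ranged from 2104 to 4313 in the SCR libraries (median 2947) and from 2894 to 4174 in the silenced ones (median 3543). SCR replicates 4 to 6 lay below every silenced library and the other 3 SCR libraries did not. Its log2 fold change there was 0.24, with a 95% interval from -0.10 to 0.58, or 0.13 to 0.34 with 1 library left out. MCM3, MCM4 and MCM7 had log2 fold changes of 0.59, 0.78 and 0.37 in HT29 and of 0.40, 0.38 and 0.25 in SW480, none of which passed. Without SCR replicate 1 of HT29 the 6 subunits lay between 0.021 and 0.11 there.

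Licensing proteins load the helicase before S phase. CDC6 was the exception among the genes in HT29 in the place of SCR replicate 1. Its values were 3850.4, 3187, 2598 and 2505 in SCR replicates 1 to 4 of HT29, 2912 and 2022 with siPOLR1D2 and 2041 and 1891 with siPOLR1D3. SCR replicate 1 was its highest library rather than its lowest, and 3 of 4 silenced libraries were below every SCR library. As a log2 fold change this was -0.45 (SE 0.18, limma, adjusted p = 0.435), and an exact permutation test gave p = 0.0857. In SW480 CDC6 ranged from 1789.8 to 3198 in the SCR libraries (median 2755) and from 2288 to 3109 in the silenced ones (median 2862). The silenced libraries lay inside the SCR range, and the log2 fold change was 0.09, with a 95% interval from -0.20 to 0.39.

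CDT1, which acts with CDC6 in loading, had values of 232, 402, 616 and 577 in SCR replicates 1 to 4 of HT29, 735 and 449.6 with siPOLR1D2 and 504 and 415 with siPOLR1D3. Its log2 fold change in HT29 was 0.26, with a 95% interval from -0.43 to 0.95, or -0.029 without SCR replicate 1. In SW480 CDT1 ranged from 377 to 678 in the SCR libraries (median 474) and from 489 to 687 in the silenced ones (median 603), and SCR replicates 3, 4 and 6 lay below every silenced library. On the log2 scale the difference was 0.24, with a 95% interval from -0.10 to 0.58, or 0.16 to 0.33 with 1 library left out. MCM10, which helps to fire loaded origins, had 168, 475, 1505 and 1253 in SCR replicates 1 to 4 of HT29, 1717 and 1249 with siPOLR1D2 and 1067 and 986 with siPOLR1D3. SCR replicate 1 was again far below the rest, and the log2 fold change was 0.98, with a 95% interval from -0.36 to 2.31, or 0.35 without that library. In SW480 MCM10 ranged from 962 to 1993 in the SCR libraries (median 1106) and from 1398 to 2266 in the silenced ones (median 1568), and its log2 fold change was 0.33, with a 95% interval from -0.08 to 0.73. ORC1 and ORC6, subunits of the origin recognition complex, had log2 fold changes of 0.70 and 0.28 in HT29 and 0.55 and 0.30 in SW480, where the adjusted p was 0.0643 for ORC1 and 0.228 for ORC6 from limma. In HT29 without SCR replicate 1 the 5 genes of origin recognition and licensing lay between -0.33 and 0.35.

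GINS2 is a subunit of the complex that activates the helicase. Its values in HT29 were 48.6, 183, 436 and 357 in SCR replicates 1 to 4, 449 and 319.7 with siPOLR1D2 and 370.1 and 280.4 with siPOLR1D3. They ran from the lowest to nearly the highest library within SCR alone, and the log2 fold change was 0.85, with a 95% interval from -0.45 to 2.15, or 0.19 without SCR replicate 1. In SW480 GINS2 ranged from 194 to 605 in the SCR libraries (median 308) and from 515 to 747 in the silenced ones (median 572). GINS2 rose with a log2 fold change of 0.89 (SE 0.24, limma, adjusted p = 0.0442), although SCR replicate 1, at 605, lay inside the silenced range. When 1 library was left out it passed only without SCR replicate 1, at 1.07, or SCR replicate 5, at 0.97. CDC45, GINS1, GINS3 and GINS4 had log2 fold changes of 0.11, 0.35, 0.40 and 0.01 in SW480 and did not pass. In HT29 they had 0.32, 0.33, 0.68 and -0.013. Without SCR replicate 1 of HT29 the 5 genes of CDC45 and GINS lay between -0.24 and 0.19.

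Promoters are shown for genes with different courses in HT29, since the genes moved together across the SCR libraries: MCM2 and GINS2, lowest in SCR replicate 1, and CDC6, highest there. RefSeq windows on GRCh38.p14, from 250 bases before to 50 after the start of the gene, were found for 36 of the 41 genes, and MCM4, MCM5, GINS4, POLD3 and CCNE2 had no entry. The letters searched, on both strands and with overlapping matches counted, were 4 forms that resemble E2F sites. TTCCCGC was the first form searched, TTCGCGC was the next, TTGCCGC came after it and TTGGCGC was the last of them. CCAAT was searched in the same way, and all matches are in capitals in the sequences.
MCM2: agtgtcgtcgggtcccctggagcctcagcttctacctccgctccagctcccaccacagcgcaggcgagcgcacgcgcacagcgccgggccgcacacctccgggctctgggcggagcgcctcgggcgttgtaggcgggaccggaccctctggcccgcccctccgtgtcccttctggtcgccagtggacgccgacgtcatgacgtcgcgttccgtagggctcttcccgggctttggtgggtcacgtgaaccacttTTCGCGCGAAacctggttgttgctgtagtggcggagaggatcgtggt
GINS2: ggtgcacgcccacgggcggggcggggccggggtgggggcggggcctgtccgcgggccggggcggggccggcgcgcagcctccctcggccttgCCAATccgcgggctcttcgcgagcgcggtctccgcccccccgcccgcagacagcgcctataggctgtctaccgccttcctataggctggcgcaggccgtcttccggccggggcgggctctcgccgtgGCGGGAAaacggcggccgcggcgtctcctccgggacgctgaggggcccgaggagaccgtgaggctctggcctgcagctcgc
CDC6: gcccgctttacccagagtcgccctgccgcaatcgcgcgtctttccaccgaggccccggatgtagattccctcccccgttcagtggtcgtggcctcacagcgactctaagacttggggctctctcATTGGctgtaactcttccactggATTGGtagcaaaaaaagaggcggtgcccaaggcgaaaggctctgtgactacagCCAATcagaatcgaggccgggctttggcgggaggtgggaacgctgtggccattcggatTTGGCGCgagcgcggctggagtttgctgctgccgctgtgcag

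The windows lie at chr3:127598161-127598460 (plus strand) for MCM2, chr16:85688905-85689204 (minus strand) for GINS2 and chr17:40287629-40287928 (plus strand) for CDC6, each read along the strand of the gene. MCM2 held 2 E2F-type matches that overlap each other on opposite strands, GINS2 held 1 and a CCAAT, and CDC6 held 1 with 3 CCAAT matches. E2F-type letters were in 30 of 36 genes with a window (83.3%), against 15.3% of the 27305 genes in the table, and in 13% of its 35116 windows. CCAAT was in 21 of 36 (58.3%), against 39.7% of genes and 34.6% of windows. These are matches of letters only, CDC6 holds both kinds, and binding was not measured.

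PCNA is the sliding clamp that holds polymerases on DNA. Its values in HT29 were 596, 1609, 4562 and 5371 in SCR replicates 1 to 4, 3752 and 3697 with siPOLR1D2 and 3139 and 2971 with siPOLR1D3. SCR replicates 3 and 4 were the highest 2 libraries and SCR replicates 1 and 2 the lowest 2. The log2 fold change was 0.61, with a 95% interval from -0.70 to 1.93, or -0.013 without SCR replicate 1. In SW480 PCNA ranged from 2555 to 6274 in the SCR libraries (median 3413) and from 4677 to 7165 in the silenced ones (median 5140.4). SCR replicates 1 and 2 lay among the silenced libraries and the other 4 SCR libraries below all of them, and the log2 fold change was 0.49 (SE 0.20, limma, adjusted p = 0.161). It passed without SCR replicate 1, at 0.63. Among the clamp loader subunits RFC2 to RFC5, log2 fold changes in SW480 ran from -0.29 for RFC5 to 0.20 for RFC3, and none passed. In HT29 they ran from -0.11 for RFC4 to 0.54 for RFC3. Without SCR replicate 1 of HT29 the 5 genes of the clamp and its loader lay between -0.38 and 0.092.

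**Figure D2:**
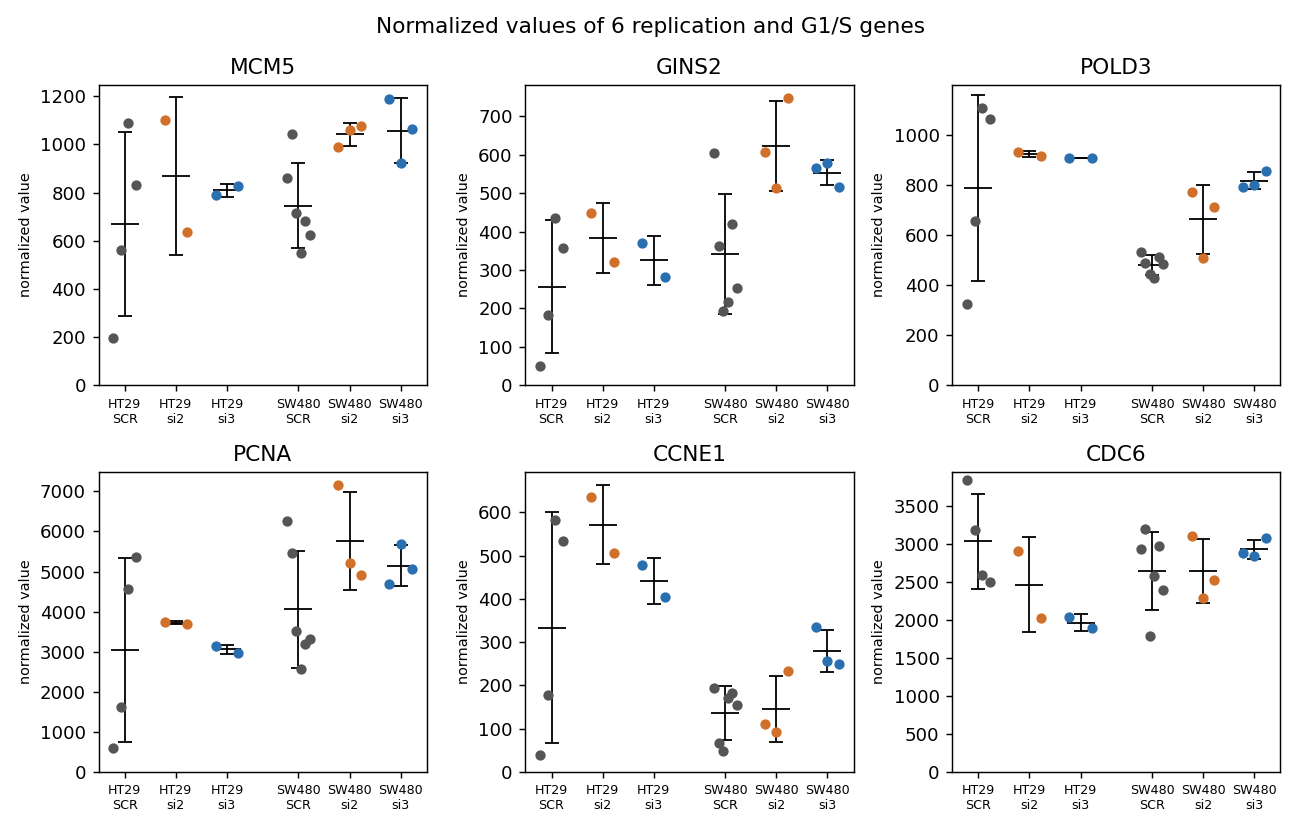
Normalized values of 6 genes by line and siRNA, with 1 point per library and the mean and SD of each group as bars. The SCR libraries of HT29 spread widely, and POLD3 in SW480 is above every SCR library in 5 of 6 silenced libraries.

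POLD3 is an accessory subunit of polymerase delta, which extends the lagging strand. In HT29 it measured 322, 654, 1108 and 1061 in SCR replicates 1 to 4, 931 and 915 with siPOLR1D2 and 906 and 905 with siPOLR1D3. The 4 silenced libraries were close together, between SCR replicates 2 and 4, and the log2 fold change was 0.37, with a 95% interval from -0.38 to 1.13, or -0.0027 without SCR replicate 1. In SW480 it ranged from 427 to 533 in the SCR libraries (median 485) and from 506 to 856 in the silenced ones (median 781). POLD3 rose with a log2 fold change of 0.60 (SE 0.13, limma, adjusted p = 0.0175), and siPOLR1D2 replicate 2, at 506, was the silenced library inside the SCR range. POLD3 passed the threshold in 12 of 12 cases when 1 library was left out, and not in a single fit of both lines, where its adjusted p from limma was 0.0766. It did not pass with siPOLR1D2 alone, at 0.44 (adjusted p = 0.148 from limma), or with siPOLR1D2 against SCR replicates 1 to 3, at 0.42 (adjusted p = 0.413 from limma).

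POLE2, a subunit of polymerase epsilon of the leading strand, had values of 68.4, 242, 446 and 461 in SCR replicates 1 to 4 of HT29, 374 and 418 with siPOLR1D2 and 343 and 342 with siPOLR1D3. Its log2 fold change was 0.60, with a 95% interval from -0.55 to 1.76 in HT29, or 0.0012 without SCR replicate 1. In SW480 it ranged from 303 to 511 in the SCR libraries (median 383) and from 279 to 459 in the silenced ones (median 374), and the log2 fold change was -0.06, with a 95% interval from -0.41 to 0.29. The other polymerase and primase genes, POLA1, POLA2, PRIM1, POLE and POLD1, had log2 fold changes from -0.03 to 0.50 in SW480 and from 0.18 to 0.55 in HT29. Without SCR replicate 1 of HT29 all 7 genes of this group, POLD3 and POLE2 included, lay between -0.28 and 0.12, 5 of them below 0.

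LIG1 joins Okazaki fragments. Its values in HT29 were 947, 2726, 3744 and 4308 in SCR replicates 1 to 4, 3486 and 3536 with siPOLR1D2 and 3378 and 3291 with siPOLR1D3. SCR replicate 1 was far below the rest, and the log2 fold change was 0.43, with a 95% interval from -0.46 to 1.32, or -0.045 without that library. In SW480 LIG1 ranged from 1099.6 to 2868 in the SCR libraries (median 1645) and from 1868 to 2999 in the silenced ones (median 2802). Only 2 silenced libraries exceeded every SCR library, and the log2 fold change was 0.57 (SE 0.21, limma, adjusted p = 0.115). It passed without SCR replicate 2, at 0.71. FEN1, the flap nuclease of the same step, had 0.47 in HT29, or 0.21 without SCR replicate 1, and 0.35 in SW480.

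RRM2, the regulated subunit of ribonucleotide reductase, supplies deoxynucleotides. In HT29 its values were 664, 1607, 4137 and 3417 in SCR replicates 1 to 4, 3799 and 2867 with siPOLR1D2 and 2894 and 2838 with siPOLR1D3. Silenced minus SCR, the log2 fold change was 0.64, with a 95% interval from -0.45 to 1.73, or 0.12 without SCR replicate 1. In SW480 RRM2 ranged from 2455 to 4110.4 in the SCR libraries (median 3202) and from 2723 to 3711 in the silenced ones (median 3266). The silenced libraries lay inside the SCR range, and the log2 fold change was -0.02, with a 95% interval from -0.30 to 0.25. RRM1, TYMS and TK1 had log2 fold changes of 0.29, 0.82 and 0.50 in HT29 and of -0.21, 0.40 and 0.11 in SW480. In HT29 without SCR replicate 1 the 4 genes of deoxynucleotide synthesis lay between -0.13 and 0.12.

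CCNE1 encodes cyclin E1, which drives the start of S phase. Its values were 38.9, 178, 583 and 533 in SCR replicates 1 to 4 of HT29, 636 and 507 with siPOLR1D2 and 479 and 404 with siPOLR1D3. SCR replicates 3 and 4 lay among the silenced libraries and SCR replicate 1 far below, and the log2 fold change of 1.21 (SE 0.73, limma, adjusted p = 0.548) was the largest of the 41 in HT29. Without SCR replicate 1 it was 0.39. In SW480 CCNE1 ranged from 48.4 to 194 in the SCR libraries (median 162) and from 91.4 to 335 in the silenced ones (median 241). SCR replicates 2 and 3 and siPOLR1D2 replicates 1 and 2 were low and the 3 siPOLR1D3 libraries the highest, while SCR replicate 1 was the highest of the SCR libraries. The difference on the log2 scale was 0.67, with a 95% interval from -0.20 to 1.55, or 0.42 to 0.89 with 1 library left out.

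CCNE2, the second cyclin E, had values of 60.7, 92.7, 302 and 361 in SCR replicates 1 to 4 of HT29, 230.3 and 249 with siPOLR1D2 and 193 and 147 with siPOLR1D3. Its log2 fold change was 0.35, with a 95% interval from -0.83 to 1.52, or -0.11 without SCR replicate 1. In SW480 CCNE2 ranged from 90.1 to 232 in the SCR libraries (median 151) and from 145 to 237 in the silenced ones (median 162), and SCR replicates 4 to 6 lay below every silenced library. As a log2 fold change this was 0.26, with a 95% interval from -0.23 to 0.74, or 0.12 to 0.39 with 1 library left out. E2F1, an activating E2F, had 41.8, 213, 349 and 376 in SCR replicates 1 to 4 of HT29, 384 and 259.6 with siPOLR1D2 and 246 and 283 with siPOLR1D3. SCR replicate 1 was lowest by far, and the log2 fold change was 0.64, with a 95% interval from -0.70 to 1.97, or -0.071 without that library. In SW480 E2F1 ranged from 159.9 to 370.2 in the SCR libraries (median 229.7) and from 211 to 391 in the silenced ones (median 272). On the log2 scale the difference was 0.20, with a 95% interval from -0.27 to 0.67, or 0.083 to 0.32 with 1 library left out.

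E2F2, a further activating E2F, is listed under 2 entries with identical values, and the value given is their sum, so the same reads may be counted again and its level may be overstated. It measured 2.48, 14.9, 30.6 and 37.4 in SCR replicates 1 to 4 of HT29, 25.7 and 36.7 with siPOLR1D2 and 20.4 and 30.9 with siPOLR1D3, low in every library of HT29, and its log2 fold change was 0.84, with a 95% interval from -0.68 to 2.36, or 0.10 without SCR replicate 1. In SW480 it ranged from 11.2 to 93.1 in the SCR libraries (median 37.6) and from 32.4 to 106 in the silenced ones (median 80.2). The SCR libraries alone covered almost the whole range, and the log2 fold change of 1.06 (SE 0.47, limma, adjusted p = 0.194) was the largest of the 41 in SW480.

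UHRF1 carries DNA methylation through replication. Its values in HT29 were 154, 624, 1774 and 1656 in SCR replicates 1 to 4, 2076 and 1323 with siPOLR1D2 and 1283 and 1222 with siPOLR1D3. Its log2 fold change was 0.98, with a 95% interval from -0.51 to 2.47, or 0.24 without SCR replicate 1. In SW480 UHRF1 ranged from 896 to 2158 in the SCR libraries (median 1354) and from 1423 to 2143 in the silenced ones (median 1775), and SCR replicates 3 to 6 lay below every silenced library. The log2 fold change there was 0.36, with a 95% interval from -0.05 to 0.76, or 0.23 to 0.48 with 1 library left out. CHAF1A and CHAF1B, of the chromatin assembly factor that follows the fork, had log2 fold changes of 0.60 and 0.27 in HT29 and 0.48 and 0.26 in SW480. In HT29 without SCR replicate 1 these 2 genes and UHRF1 lay between -0.24 and 0.24.

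**Figure D3:**
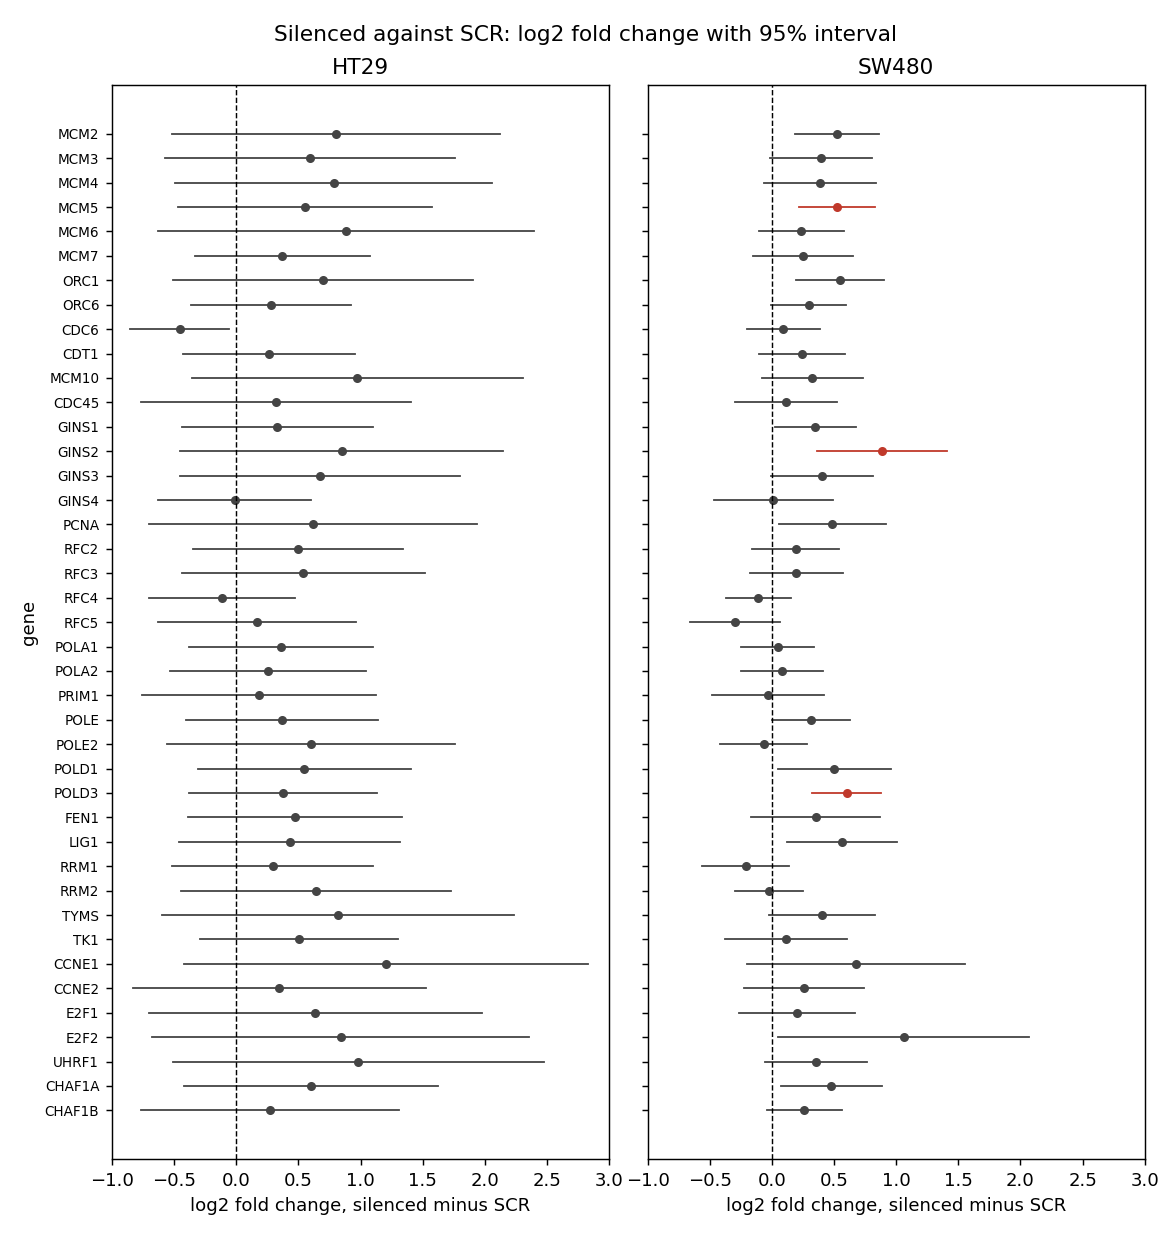
Points are the log2 fold change, silenced minus SCR, of each of the 41 genes and lines are its 95% interval, in HT29 on the left and SW480 on the right. MCM5, GINS2 and POLD3, in red, have an adjusted p under 0.05 in SW480, and in HT29 the interval of CDC6 alone excludes 0.

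The SCR libraries of HT29 differed from each other in most of these genes. SCR replicate 1 held the lowest value of all 8 libraries for 40 of the 41 genes, against 27.6% of all genes tested, and the highest for CDC6. SCR replicate 2 was second lowest for 37. The mean of SCR replicates 3 and 4 was between 0.663 and 14.3 times SCR replicate 1, with a median of 4.80. The mean log2 level of the 41 genes, relative to the SCR mean, was -1.47, -0.12, 0.81 and 0.78 in SCR replicates 1 to 4 and 0.76, 0.45, 0.40 and 0.37 in the silenced libraries.

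Without SCR replicate 1, 22 of the 41 genes in HT29 had a log2 fold change above 0. None of them passed in limma, with 0% of 13497 genes called, and at an unadjusted p under 0.05 0 were higher, against 4.3%, and 1 lower, against 5.93%. Without SCR replicates 1 and 2, a comparison chosen after the data had been seen, 0 of 41 were above 0. In that comparison of 2 SCR with 4 silenced libraries, 14 of the 41 were lower at an unadjusted p under 0.05, against 6.85% of genes, and none passed the adjusted threshold in limma, as for all 13777 genes (0%). The direction in HT29 turned with the SCR libraries used.

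Other readouts differed in the same libraries, and CDKN1A and MKI67 were chosen after their values were seen. CDKN1A, an inhibitor of cyclin-dependent kinases, was 623, 157, 31.8 and 80.5 in SCR replicates 1 to 4 of HT29, and MKI67, a marker of cycling cells, was 12894, 25728, 41408 and 39828. Relative to the SCR mean, the mean log2 level of 13 integrated stress response genes was 1.11, 0.62, -1.29 and -0.43 in the same order and between -1.72 and -1.52 in the silenced libraries. SCR replicates 1 and 2 had fewer estimated reads than the other SCR libraries, while siPOLR1D3 replicate 2, with the fewest of all, had a member mean of 0.37, close to siPOLR1D3 replicate 1. The part of depth and of the stress response in these levels was not tested.

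**Figure D4:**
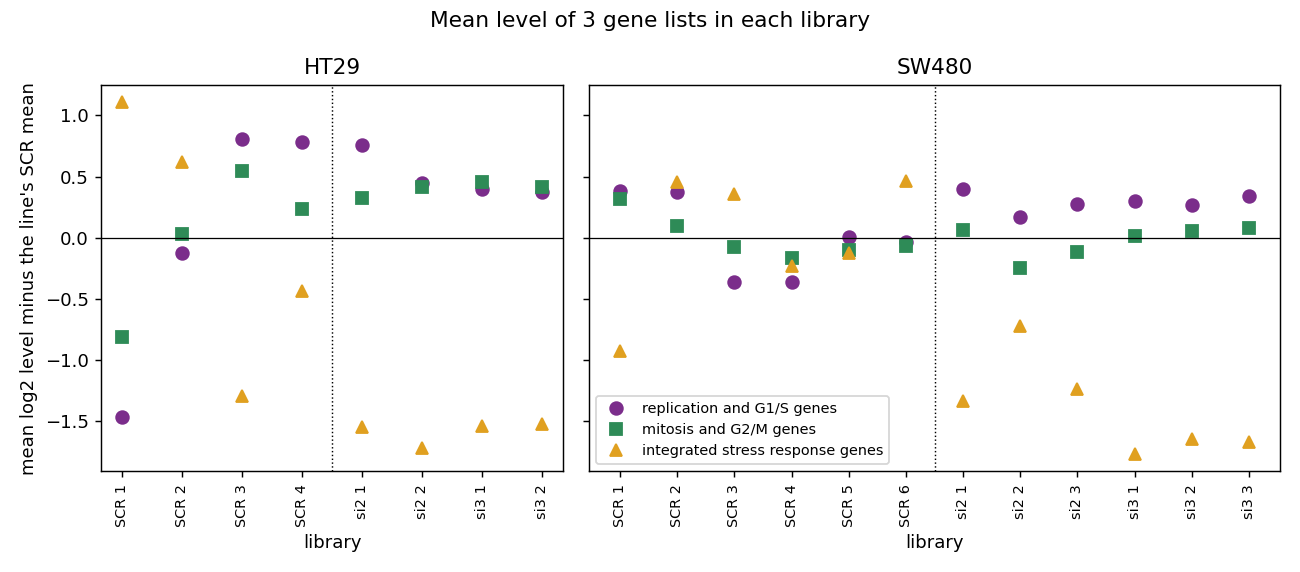
Mean log2(normalized value + 1) of 3 gene lists in each library, minus the mean of the SCR libraries of the same line, with silenced libraries to the right of the dotted line. In HT29 SCR replicate 1 is lowest for replication and mitosis genes and highest for stress response genes.

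In SW480 the SCR libraries also differed, though less. The mean log2 level of the 41 genes relative to the SCR mean was 0.38, 0.38, -0.36, -0.36, 0.0049 and -0.04 in SCR replicates 1 to 6. It lay between 0.17 and 0.40 in the 6 silenced libraries, of which siPOLR1D2 replicate 1 alone exceeded SCR replicates 1 and 2. SCR replicates 3 and 4 held the lowest value for 14 and 22 of the 41 genes. For 36 of 41 genes the SD of log2 values was larger among SCR than among silenced libraries, and in HT29 for 41 of 41, against 55.3% and 71.5% of all genes tested.

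Each siRNA was also set against the same 6 SCR libraries of SW480, so these comparisons share their controls. With siPOLR1D2, 1 member, MCM2, rose, with a log2 fold change of 0.67 (adjusted p = 0.0436 from limma), against 3.16% of genes called higher, and the median was 0.32. Fitted without the siPOLR1D3 libraries, MCM2 had the same 0.67 and did not pass (adjusted p = 0.0935 from limma). With siPOLR1D3, 1 member, POLD3, rose, with 0.76 (adjusted p = 0.00906 from limma), against 2.15%, and the median was 0.26. Between the siRNAs, 0 of the 41 passed in limma, against 3.32% of genes called in either direction, and at an unadjusted p under 0.05 1 was higher with siPOLR1D3, against 10.7%, and 0 lower, against 11.1%.

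In HT29 the siRNAs likewise share their SCR libraries, and the median was 0.59 with siPOLR1D2 and 0.40 with siPOLR1D3. None of the 41 passed in limma with either siRNA, with 0% of genes called for each. At an unadjusted p under 0.05, 0 differed with siPOLR1D2, against 4.36% of genes. With siPOLR1D3, 0 were higher, against 3.74%, and 1 was lower, against 4.02%. Between the siRNAs the median, siPOLR1D3 minus siPOLR1D2, was -0.22, and 5 of 41 were above 0. None passed in limma, with 0% of genes called, and 0 had an unadjusted p under 0.05, against 1.56%.

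The counts differed when each siRNA was set against 3 SCR libraries only. On the first component siPOLR1D2 replicate 3 lay on the other side from SCR replicates 1 to 3. The siPOLR1D3 libraries and SCR replicates 4 to 6 all lay on the same side. The siRNA, the SCR libraries used and the side of the component therefore cannot be told apart here. For siPOLR1D2 against SCR replicates 1 to 3, 0 of 41 genes passed in limma, with 0% of 14802 genes called, 0 of the 41 at an unadjusted p under 0.05, against 13.9% of genes, and a median of 0.11. For siPOLR1D3 against SCR replicates 4 to 6, 20 of 41 rose, against 9.27% of 15416 genes called higher, with a median of 0.44. Among them were PCNA at 0.77 (adjusted p = 0.0011 from limma) and LIG1 at 1.02 (adjusted p = 0.000916 from limma). Against all 6 SCR libraries the median was 0.32 with siPOLR1D2 and 0.26 with siPOLR1D3.

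**Figure D5:**
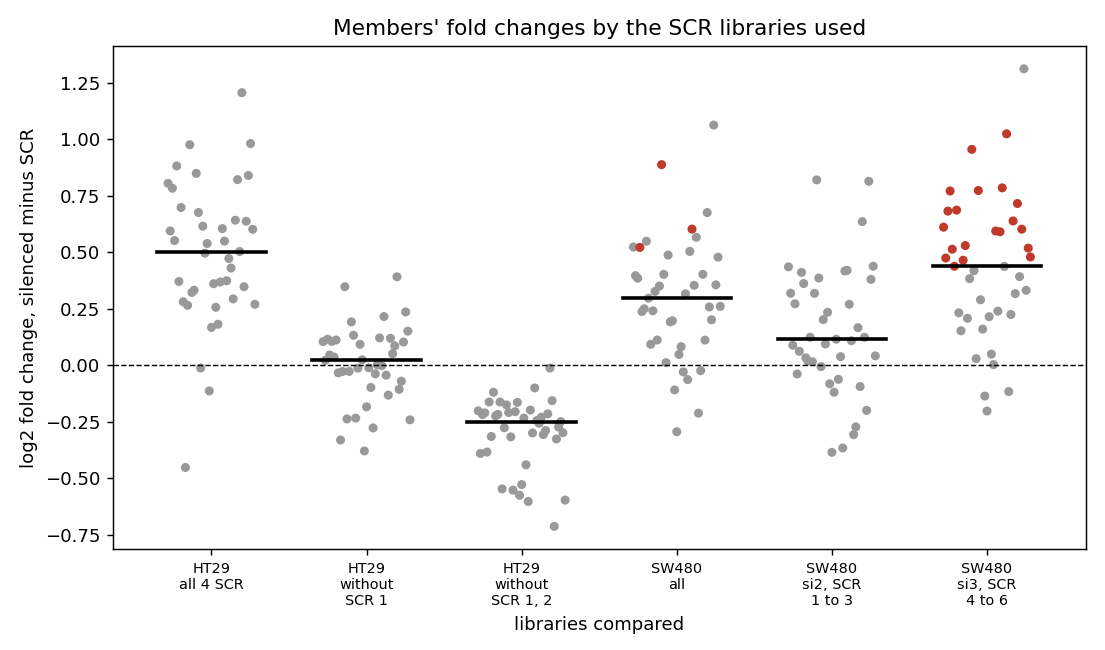
Each point is the log2 fold change of 1 of the 41 genes, silenced minus SCR, red where the adjusted p is under 0.05, and bars are medians. The median in HT29 goes from 0.50 with all SCR libraries to 0.02 and -0.25 as SCR replicates 1 and 2 are left out, and in SW480 it is 0.11 and 0.44 in the comparisons by siRNA.

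The difference in response, SW480 minus HT29, was tested in a fit of all 20 libraries. None of the 41 genes passed in limma, against 0.0393% of 12725 genes, and 1 had an unadjusted p under 0.05, against 8.58%. This was CDC6, with a difference of 0.55 on the log2 scale and a 95% interval from 0.07 to 1.02 (adjusted p = 0.507 from limma). For RRM2 the difference was -0.67, with an interval from -1.62 to 0.29. For POLE2 it was -0.67, with an interval from -1.71 to 0.37.

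The lists of other genes were tested like the 41, with both siRNAs pooled unless an siRNA is named. Of 30 other replisome and origin genes, none passed in either line in limma. At an unadjusted p under 0.05 from limma, 0 were higher or lower in HT29, against 4.66% and 6.05% of all genes. In SW480, beside 10.4% and 12.8% of all genes, 3 of the 30 were higher and 1 lower. Their median log2 fold change was 0.20 in HT29, or 0.039 without SCR replicate 1 and -0.14 without SCR replicates 1 and 2, and 0.05 in SW480, or 0.096 without SCR replicate 2 and -0.00023 without SCR replicate 4. In SW480 the smallest p belonged to MCM9, a helicase of recombination, with 0.55 (SE 0.16, limma, adjusted p = 0.0537), followed by POLD4, POLE4 and TICRR at -0.66, 0.34 and 0.40. MCM9 passed without SCR replicate 2, at 0.62, and TICRR without siPOLR1D2 replicate 2, at 0.53. With siPOLR1D2 2 of the 30 rose against the 6 SCR libraries, beside 3.16% of all genes called higher. These were MCM9 with 0.72 and RPA2, of the single-strand binding protein, with 0.45 (adjusted p = 0.0277 and 0.0437 from limma). For siPOLR1D3 against SCR replicates 4 to 6, 3 of the 30 rose, against 9.27% of all genes called higher. These were MCM9 with 0.60, TICRR with 0.55 and CLSPN, a checkpoint mediator, with 0.78. RPA2 and CLSPN were chosen after their values were seen. In HT29 POLE3 and DBF4 had 0.53 and 0.32, or 0.32 and 0.18 without SCR replicate 1.

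Of 11 other E2F and pocket protein genes, RBL1, a pocket protein, rose with 0.42 (SE 0.10, limma, adjusted p = 0.0281) and E2F7, a repressive E2F, fell with -0.56 (SE 0.13, limma, adjusted p = 0.0261) in SW480, while E2F3 and RBL2 had 0.38 and -0.32. In SW480 1 of the 11 thus rose and 1 fell, against 2.44% and 4.29% of all genes. E2F7 did not pass without SCR replicate 3, SCR replicate 6 or siPOLR1D2 replicate 3, at -0.51, -0.50 and -0.57. RBL1 did not pass without any 1 of SCR replicates 4 to 6, siPOLR1D2 replicates 1 and 3 and siPOLR1D3 replicate 3, at 0.38 to 0.41. With siPOLR1D2 against the 6 SCR libraries E2F3 passed too, at 0.55, and with siPOLR1D3 neither RBL1 nor E2F7 passed. Of the 11, 2 rose and 1 fell with siPOLR1D2, against 474 and 751 of all 15021 genes. With siPOLR1D3 0 rose and 1 fell, against 323 and 669. RBL1, at 0.50, and RBL2, at -0.38, were among those that passed for siPOLR1D3 against SCR replicates 4 to 6. There 3110 of 15416 genes were called in either direction. In HT29 none of the 11 passed in limma, and at an unadjusted p under 0.05 1 was higher and 1 lower, E2F3 at 0.56 and RBL2 at -0.28. The shares of all genes were 4.66% and 6.05%. Without SCR replicate 1, 0 of the 11 were higher or lower, against 4.3% and 5.93% of all genes. Without SCR replicates 1 and 2, 1 was higher and 2 lower, and 6.85% of all genes were lower there. The median of the list was 0.21 with every library, 0.060 without SCR replicate 1 and -0.19 without SCR replicates 1 and 2.

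Of 17 G1 cyclins, kinases and kinase inhibitors, 3 fell in SW480, against 4.29% of all genes called lower. The kinase inhibitor gene CDKN2B had -1.29 (SE 0.28, limma, adjusted p = 0.0185), the kinase gene CDK6 -0.72 (SE 0.16, limma, adjusted p = 0.0198) and the inhibitor gene CDKN1B -0.58 (SE 0.15, limma, adjusted p = 0.0366). CDKN1B did not pass without any 1 of SCR replicates 2, 3 and 6, siPOLR1D2 replicates 1 and 3 and siPOLR1D3 replicates 1 and 3, at -0.59 to -0.48. CDKN2A had -0.55 and did not pass, but passed without siPOLR1D2 replicate 1, at -0.65, and with siPOLR1D3 against the 6 SCR libraries, at -0.85. In these comparisons by siRNA CDKN2B did not pass with siPOLR1D2, nor CDKN1B with siPOLR1D3. In all 3 of the 17 fell with siPOLR1D2 and 5 with siPOLR1D3, beside 751 and 669 of all 15021 genes called lower. In HT29, where 16 of the 17 were tested, none passed in limma, and CCND1 and CCND3 had 0.68 and 0.42. At an unadjusted p under 0.05, 3 of the 16 were higher and 3 lower, against 4.66% and 6.05% of all genes. Without SCR replicate 1, 2 were higher and 0 lower, against 4.3% and 5.93% of all genes. Without SCR replicates 1 and 2, 1 was higher and 0 lower, and 6.85% of all genes were lower there.

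Of 12 other deoxynucleotide and S phase chromatin genes, DNMT1, the maintenance methyltransferase that works with UHRF1, rose in SW480 with 0.86 (SE 0.19, limma, adjusted p = 0.0215), and the histone chaperone gene ASF1A fell with -0.49 (SE 0.12, limma, adjusted p = 0.028). In SW480 1 of the 12 thus rose and 1 fell, against 2.44% and 4.29% of all genes. HELLS and SLBP had 0.38 and 0.40 there, and passed without SCR replicate 2, at 0.51, and without SCR replicate 1, at 0.54. ASF1A did not pass without any 1 of SCR replicates 3 and 6 and siPOLR1D3 replicates 1 to 3, at -0.50 to -0.43. By siRNA against the 6 SCR libraries, DNMT1 passed with siPOLR1D2 and not with siPOLR1D3, and ASF1A with neither. For siPOLR1D3 against SCR replicates 4 to 6, 4 of the 12 rose and 1 fell. Of all 15416 genes 9.27% were called higher there, and 3110 in either direction. In HT29 none of the 12 passed in limma, with 0 at an unadjusted p under 0.05, and HELLS and ASF1A had 0.98 and -0.24, or 0.14 and -0.14 without SCR replicate 1.

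Of 22 mitosis and G2/M genes, 1 fell in SW480, against 4.29% of all genes called lower. This was TPX2, a spindle assembly factor, with -0.60 (SE 0.12, limma, adjusted p = 0.0137). The median of the list was -0.11 in SW480 beside 0.30 for the 41 replication genes, and 0.40 in HT29 beside 0.50. Without SCR replicate 1 it was -0.014 in SW480 and 0.089 in HT29, and without SCR replicates 1 and 2 of HT29 it was -0.022. With siPOLR1D2 against the 6 SCR libraries of SW480, 3 of the 22 fell, TPX2, TOP2A and NUSAP1, the last chosen after its values were seen. Of all 15021 genes 751 were called lower in that comparison. For siPOLR1D3 against SCR replicates 4 to 6, 6 of the 22 rose, against 9.27% of all genes called higher, and 1, TPX2, fell. Over all genes 3110 of 15416 were called in either direction in that comparison. The median of the 22 there was 0.11, so that the direction in SW480 turned with the libraries used. In HT29 none of the 22 passed, and 4 were higher at an unadjusted p under 0.05 from limma, against 4.66% of all genes. Without SCR replicate 1, 2 of the 22 were higher and 0 lower, against 4.3% and 5.93% of all genes. Without SCR replicates 1 and 2, 1 was higher and 2 lower, and 6.85% of all genes were lower there. PLK1, FOXM1 and TOP2A had 0.48, 0.44 and -0.29 in SW480, where PLK1 passed without SCR replicate 1, at 0.59, or siPOLR1D2 replicate 2, at 0.55, and FOXM1 without SCR replicate 2, at 0.53. In HT29 AURKA and CCNB1 had 0.58 and 0.45.

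Of 13 integrated stress response genes, 12 fell in SW480, against 4.29% of all genes called lower. Among them were ASNS with -1.79 (SE 0.23, limma, adjusted p = 0.00166) and PPP1R15A with -1.94 (SE 0.28, limma, adjusted p = 0.00275). GARS and ATF4 had -0.96 and -0.81, which passed. With 1 library left out between 7 and 13 of them fell, 7 without SCR replicate 6 and 7 without siPOLR1D3 replicate 3. By siRNA against the 6 SCR libraries 4 fell with siPOLR1D2 and 12 with siPOLR1D3, beside 751 and 669 of all 15021 genes called lower. In HT29 none passed, and all 13 were lower at an unadjusted p under 0.05 from limma, CHAC1 and ATF4 having -2.18 and -0.71. Of all genes 6.05% were lower at that p. Without SCR replicate 1, 12 of the 13 were lower, against 5.93% of all genes, and without SCR replicates 1 and 2, 9, against 6.85%. The median of the list was -1.53 with every library, -1.25 without SCR replicate 1 and -0.62 without SCR replicates 1 and 2.

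Markers of other cells were read in the same libraries. In HT29 the summed value of 6 fibroblast markers was between 18.3 and 84.3, most of it COL1A1, the only one tested there, with a log2 fold change of 1.17 (SE 0.38, limma, adjusted p = 0.408). In SW480 they summed to 235 and 237 in SCR replicates 2 and 3, 261 and 284 in siPOLR1D2 replicates 1 and 2, and from 585 to 1273 in the rest, and with both siRNAs pooled none of 5 tested passed in limma, 0 of them at an unadjusted p under 0.05. LUM, COL1A2, COL3A1 and PDGFRB had log2 fold changes of -0.63, 0.91, 0.70 and -0.61, and PDGFRB turned to 0.055 without siPOLR1D2 replicate 1 and to 0.17 without siPOLR1D2 replicate 2. LUM fell with siPOLR1D3 against the 6 SCR libraries, at -1.29 (adjusted p = 0.00695 from limma), and was lower with siPOLR1D3 than with siPOLR1D2, at -1.32 (adjusted p = 0.0198 from limma). For siPOLR1D3 against SCR replicates 4 to 6, LUM fell with -1.11 and PDGFRB with -0.52 (adjusted p = 0.00596 and 0.0357 from limma). The 4 endothelial markers summed to at most 14.3 in HT29 and 143 in SW480, where VWF had -0.75. The 6 leukocyte markers summed to between 22293 and 32509 in HT29, almost all of it LYZ, while PTPRC, which marks leukocytes at large, was at most 21.2. In SW480 they summed to between 121 and 852, with CD68 and LYZ at -0.58 and 0.56, the latter -0.041 without siPOLR1D2 replicate 1. In HT29 CD14 had 0.64, or 0.42 without SCR replicate 1.

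Epithelial markers, 11 in all, summed to between 212804 and 252707 in HT29, with KRT8 the most abundant, and to between 131828 and 259901 in SW480, with KRT18. CDX1 was at or near 0 in both lines. In SW480 KRT20 rose with 2.74 (SE 0.48, limma, adjusted p = 0.00698), and KRT8, EPCAM and CDX2 had 0.17, 0.15 and 0.34. CDX2 was higher with siPOLR1D3 than with siPOLR1D2, at 1.72 (adjusted p = 0.0387 from limma), and rose with siPOLR1D3 against SCR replicates 4 to 6, at 1.11 (adjusted p = 0.00248 from limma). In HT29 none passed in limma and 1 was higher at an unadjusted p under 0.05, VIL1 at 0.69, while CEACAM5 had -1.31, or -0.54 without SCR replicate 1 and 0.53 without SCR replicates 1 and 2. The part of these markers in the results was not tested.

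By GENCODE version 29 on GRCh38, the 41 genes lie on 19 chromosomes, and 19 share exon bases with another gene, 14 of them with a protein-coding gene. Among those described by their values, MCM2, GINS2 and CCNE2 overlap the protein-coding genes TPRA1, GSE1 and INTS8 on the opposite strand. RRM2 overlaps a protein-coding gene on its own strand. POLD3 overlaps a noncoding gene on its own strand, and LIG1 a noncoding gene on the opposite strand. Whether the quantification used strand is not given in the sources used here, which bears on the overlaps on opposite strands. Strand would not separate the overlaps on the same strand, and the values of all these genes are uncertain to that extent.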

How the data were processed

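RNA of 20 libraries, 8 of HT29 and 12 of SW480, was grouped by cell line and siRNA from the labels. The deposited signal values are read counts per gene that the authors normalized with DESeq2 1.24.0 within each line, after FastQC 0.11.5 and pseudo-alignment with kallisto 0.44.0 on hg38. The transcript annotation is not given in the sources used here. The values are not whole reads, so no interval was drawn from depth.

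Entries sharing a gene name were summed, and 15 entries with date-like names were kept apart. A gene entered the tests of a line when its value reached at least 10 in a number of libraries no lower than the size of the smaller group. Each line was tested with limma 3.58.1 in R 4.3.3, on log2(value + 1), with a mean-variance trend and Benjamini-Hochberg adjustment over all genes tested, at an adjusted p under 0.05. limma took the place of a count test because of the unit. Both siRNAs were pooled. The siRNAs were compared in a fit of 3 groups per line, and the lines by an interaction over all 20 libraries. Single genes were tested by exact permutation, 2-sided. The steps were tested on simulated data. There the noise was drawn separately for each gene and library, so shifts that many genes of a library share were not covered.

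The members and lists were chosen with earlier results of these data known. Values in every library of HT29, and the lowest, median and highest of each group in SW480, were given for the 5 members with the largest absolute fold change in each line, the 3 with the smallest p between lines, and PCNA, MCM2, CDT1, CCNE1, CCNE2 and E2F1. Of each other list, up to 4 genes with the smallest p in SW480 and up to 2 in HT29 were named. A gene that this rule takes is not reported here. MCM5, CDKN1A, MKI67, CDX1, PTPRC, RPA2, CLSPN and NUSAP1 fall outside this rule and were chosen after their values were seen.

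Alternatives were other pseudocounts (0.1 and 5), no filter, a minimum of 50, upper quartile scaling, quantile normalization, entries left unsummed, robust moderation, the replicate number as a block, the side of the first component as a covariate, each siRNA alone, parts of the SCR libraries, both lines in a single fit and each library left out. Promoter sequences were from RefSeq (GRCh38.p14) and gene positions from GENCODE version 29.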

Additional observations from a re-analysis of the deposited data

Results flagged for a closer look

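For each of the 41 genes, the SCR and the silenced libraries of each line were looked at for a library far from the rest, 164 groups in all. The values in parentheses are untransformed. The gap from the highest or lowest library to its neighbour, as a share of the group's whole range, both on log2(value + 1), passed Dixon's limit in 10 groups, and chance alone gives about 1 in 20 groups. In the silenced libraries of HT29 these shares were RFC2 at 0.876 (siPOLR1D2 replicate 1, value 1165), FEN1 at 0.853 (siPOLR1D2 replicate 1, value 1495), RRM2 at 0.933 (siPOLR1D2 replicate 1, value 3799), UHRF1 at 0.849 (siPOLR1D2 replicate 1, value 2076). In the silenced libraries of SW480 they were ORC6 at 0.691 (siPOLR1D2 replicate 3, value 1889), MCM10 at 0.699 (siPOLR1D2 replicate 1, value 2266), RFC5 at 0.651 (siPOLR1D2 replicate 1, value 1214), POLD3 at 0.643 (siPOLR1D2 replicate 2, value 506). In the SCR libraries of SW480 they were POLA2 at 0.663 (SCR replicate 3, value 675), POLE at 0.759 (SCR replicate 2, value 3136). The genes moved together across libraries, so the 164 groups are not separate draws and their count cannot be judged against 1 in 20. Every group flagged in HT29 was flagged for siPOLR1D2 replicate 1, which held the highest value of 18 of the 41 genes in that line. Whether anything set these values apart was not tested.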

How the results depend on the processing

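Results were recomputed under up to 22 other settings in HT29 and 27 in SW480, where the setting applied, for the 41 genes. POLR1D and the other lists were recomputed by siRNA and with libraries left out only. Leaving out HT29 SCR replicates 1 and 2 together was chosen after seeing the data. With these 2 left out, or with the side of the first component as a covariate, which by construction compares the same libraries, the median of the 41 genes in HT29 was -0.25. Single log2 fold changes were then -0.27 for E2F2, -0.18 for GINS2, -0.16 for CCNE1, -0.25 for POLD3, -0.23 for LIG1, -0.25 for UHRF1, -0.16 for MCM10, -0.38 for MCM6, -0.29 for RRM2, -0.30 for POLE2, -0.55 for PCNA, -0.20 for MCM2, -0.22 for CDT1, -0.71 for CCNE2, -0.33 for E2F1, -0.21 for MCM5. Leaving out 1 library at a time gave ranges in HT29 of -0.0027 to 0.59 for POLD3, -0.045 to 0.68 for LIG1, -0.013 to 1.04 for PCNA, -0.029 to 0.44 for CDT1, -0.11 to 0.74 for CCNE2, -0.071 to 0.98 for E2F1, each negative only without SCR replicate 1.

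In SW480, 1 member and 666 genes passed without a filter, where more genes were tested, and 5 members and 1109 genes after quantile normalization. With the side of the first component as a covariate 9 members and 1993 genes passed. In a single fit of both lines 0 members and 1253 genes passed in SW480 by limma, beside 3 and 1010 in SW480 alone, and 4 genes in HT29. With siPOLR1D2 alone 0 members and 574 genes passed, and with siPOLR1D3 alone 1 member and 917 genes. With siPOLR1D2 against SCR replicates 1 to 3, 0 members and 0 genes passed, and with siPOLR1D3 against SCR replicates 4 to 6, 20 and 3110. Leaving out 1 library gave 0 to 1 genes in HT29, and in SW480 1 to 6 members and 534 to 1284 genes.

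Signs turned in SW480 for RRM2 with upper quartile scaling (0.010), quantile normalization (0.051), siPOLR1D3 alone (0.051) and siPOLR1D3 against SCR replicates 4 to 6 (0.22). They turned for POLE2 in the last of these settings (0.24) and with siPOLR1D3 alone (0.15), for E2F1 with siPOLR1D2 alone (-0.038) and against SCR replicates 1 to 3 (-0.20), and for MCM6 in the latter (-0.039). With 1 library left out the ranges were -0.11 to 0.040 for RRM2, -0.13 to 0.020 for POLE2 and -0.016 to 0.15 for CDC6. The cause was not tested.

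The replicate numbers did not pair the libraries. Deviations of same-numbered SCR and silenced libraries correlated at -0.13 to 0.03 in HT29 and -0.41 to 0.57 in SW480, and 0 of 4 and 0 of 6 silenced libraries correlated best with their own number. With the number as a block, 14 members, all higher, and 735 genes passed in HT29, with a median of 1.20 over the 41 beside 0.50 without the block. In SW480 0 members and 0 genes passed, with a median of 0.14 beside 0.30, and MCM6 was at -0.059 and CCNE2 at -0.11. By construction the block gives no weight to SCR libraries whose number no silenced library has.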
